A study of Mus musculus with 8 samples.

Results

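Transcripts of 10 chemokine genes were followed in the liver of hypercholesterolemic mice given isoginkgetin (ISOGK) or vehicle. They were the rows with the symbols *Ccl2*, *Ccl5*, *Ccl6*, *Ccl9*, *Ccl24*, *Cxcl1*, *Cxcl9*, *Cxcl10*, *Cxcl12* and *Cxcl13*, 10 of the 16540 gene symbols counted, and all 10 were found. The rule goes by gene symbol. All 8 mice were male *Apoe*-/- animals, a strain that lacks apolipoprotein E and develops high plasma cholesterol, and all were fed a Western diet, which in the study's methods is a high cholesterol diet begun some weeks before dosing. The vehicle group (4 mice) was dosed with DMSO, the solvent, and the ISOGK group (4 mice) with isoginkgetin, a biflavonoid of *Ginkgo biloba* studied as an inhibitor of ATP-citrate lyase, at 20 mg/kg/day by intraperitoneal injection for 8 weeks. One library of whole-liver RNA was made per mouse, and the ages of the mice were not given in the sources used here. The knockout is constitutive and is carried by the controls too, and *Apoe* itself had 3252 to 6489 counts per library, so its transcript does not show the genotype, which rests on the labels.

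Chemokines are small secreted proteins that draw leukocytes along a gradient by binding G protein-coupled receptors on their surface. CC chemokines mostly attract monocytes, T cells and eosinophils, whereas CXC chemokines attract neutrophils, activated T cells or B cells, depending on the member. In liver with excess lipid they are made by hepatocytes, Kupffer cells, endothelium and stellate cells, and several of them are transcribed in response to NF-kB or to interferon-gamma. None of the 9 chemokine genes that could be tested differed between the groups at an adjusted p under 0.05, while 7.55% of all 12307 genes tested did. What the data do show is how far these transcripts varied from mouse to mouse, and which mice carried the high values.

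The stretches just upstream of 4 genes are shown because they differ in the NF-kB and interferon motifs they hold and because the results below turn on these genes. Each run is the 250 bases before the RefSeq start of the gene (GRCm38.p6), read 5′ to 3′ on the strand of the gene, with motif matches in capitals. *Cxcl10* is at chr5:92348890-92349139 (minus strand), *Cxcl9* at chr5:92328080-92328329 (minus strand), *Cxcl1* at chr5:90890995-90891244 (plus strand) and *Ccl9* at chr11:83578637-83578886 (minus strand).
Cxcl10: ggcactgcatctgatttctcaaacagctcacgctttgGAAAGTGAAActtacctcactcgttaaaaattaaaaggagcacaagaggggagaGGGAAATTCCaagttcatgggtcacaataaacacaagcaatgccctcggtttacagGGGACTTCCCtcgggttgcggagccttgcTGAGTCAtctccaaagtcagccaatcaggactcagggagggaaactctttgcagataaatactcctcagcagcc
Cxcl9: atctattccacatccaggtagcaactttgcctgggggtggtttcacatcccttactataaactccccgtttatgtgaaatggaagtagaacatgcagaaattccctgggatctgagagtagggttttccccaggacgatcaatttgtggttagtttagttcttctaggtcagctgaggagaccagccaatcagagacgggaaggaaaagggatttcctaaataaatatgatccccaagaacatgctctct
Cxcl1: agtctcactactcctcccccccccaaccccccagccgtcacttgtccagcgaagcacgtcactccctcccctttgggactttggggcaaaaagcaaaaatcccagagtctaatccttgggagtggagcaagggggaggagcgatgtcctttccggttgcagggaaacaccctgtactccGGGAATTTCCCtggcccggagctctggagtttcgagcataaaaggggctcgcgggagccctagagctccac
Ccl9: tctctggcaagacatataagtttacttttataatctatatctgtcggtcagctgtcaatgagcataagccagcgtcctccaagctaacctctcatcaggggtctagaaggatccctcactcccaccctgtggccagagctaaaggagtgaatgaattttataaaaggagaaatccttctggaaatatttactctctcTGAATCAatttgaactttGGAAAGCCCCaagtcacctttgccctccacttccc

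The motifs searched on both strands were the NF-kB consensus of 10 bases, the interferon-stimulated response element of 10 bases, the gamma-activated site TTCNNNGAA and the AP-1 site TGANTCA. Upstream sequence was found for 7 of the 10 genes, the entries of *Ccl2*, *Ccl5* and *Ccl24* being absent. In *Cxcl10* the capitals mark an interferon-stimulated response element at -213 to -204 from the start, NF-kB matches at -159 to -150 and -103 to -94, and an AP-1 match at -74 to -68. *Cxcl1* held one NF-kB stretch, read as overlapping matches at -71 to -62 and -70 to -61. *Ccl9* held an AP-1 match at -53 to -47 and an NF-kB match at -35 to -26. *Cxcl9* held no match in this window, nor did *Ccl6*, *Cxcl12* and *Cxcl13*. Of 32851 promoters of the same length, 3.90% held the NF-kB consensus, 2.98% the response element, 7.02% the gamma-activated site and 6.75% the AP-1 site, against 3, 1, 0 and 2 of the 7 genes here. A match of letters is not a measured binding site, and the RNA data do not bear on binding.

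The genes lie on 3 chromosomes (GENCODE M21, GRCm38). *Ccl2* (chr11:82035571-82037453), *Ccl5* (chr11:83525778-83530518), *Ccl9* (chr11:83572919-83578636) and *Ccl6* (chr11:83587882-83593087) are on chromosome 11, where *Ccl9* and *Ccl6* are 9.24 kb apart. Chromosome 5 carries 5 members, with *Cxcl9* (chr5:92321347-92328079) and *Cxcl10* (chr5:92346638-92348889) separated by 18.6 kb, and with *Cxcl1* (chr5:90891241-90893115), *Cxcl13* (chr5:95956951-95961068) and *Ccl24* (chr5:135569937-135573049) farther off. *Cxcl12* (chr6:117168535-117181367) is alone on chromosome 6.

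Libraries held 17457106 to 24461854 counts on genes, and the ranges of the groups overlapped. Values below are CPM (counts scaled to library size) with TMM factors, which adjust for differences in composition, given for mice 1 to 4 of each group in that order. A mouse number only names a mouse and pairs none across groups. Hepatocyte markers such as *Alb* were abundant in every library (summed 132000 to 170000 CPM). Vehicle mouse 4 was the only one with skeletal muscle transcripts (6 markers, 59.3 CPM against at most 0.49 elsewhere), and vehicle mouse 1 and ISOGK mouse 4 had the lowest sums of stellate cell markers (296 and 233 CPM). Leaving out both of these last mice, an alternative chosen after seeing the data, also called 0 members.

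The members spanned a wide range of abundance. Per length of exon, the vehicle means were 28.5 RPKM (CPM per kilobase of exon) for *Cxcl12*, 25.1 for *Ccl6*, 17.2 for *Ccl9*, 11.5 for *Cxcl1*, 5.37 for *Cxcl9*, 2.11 for *Cxcl10*, 1.97 for *Ccl5*, 1.15 for *Ccl24*, 0.697 for *Ccl2* and 0.629 for *Cxcl13*. Of neighbours in this order, *Ccl6* (at least 20.9 RPKM) and *Ccl9* (at most 18.7) were apart in all vehicle mice, and the ranges of all other neighbours overlapped. In the ISOGK group the order was the same down to *Cxcl9*, and *Ccl5* (2.97 RPKM) then stood above *Ccl24* (1.53) and *Cxcl10* (1.24). There the ranges were apart for *Ccl6* and *Ccl9* and for *Ccl5* and *Ccl24*. The 10 genes summed to 331 to 418 CPM per mouse, of which *Cxcl12* made up 56.4% to 76.8%.

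**Figure D1:**
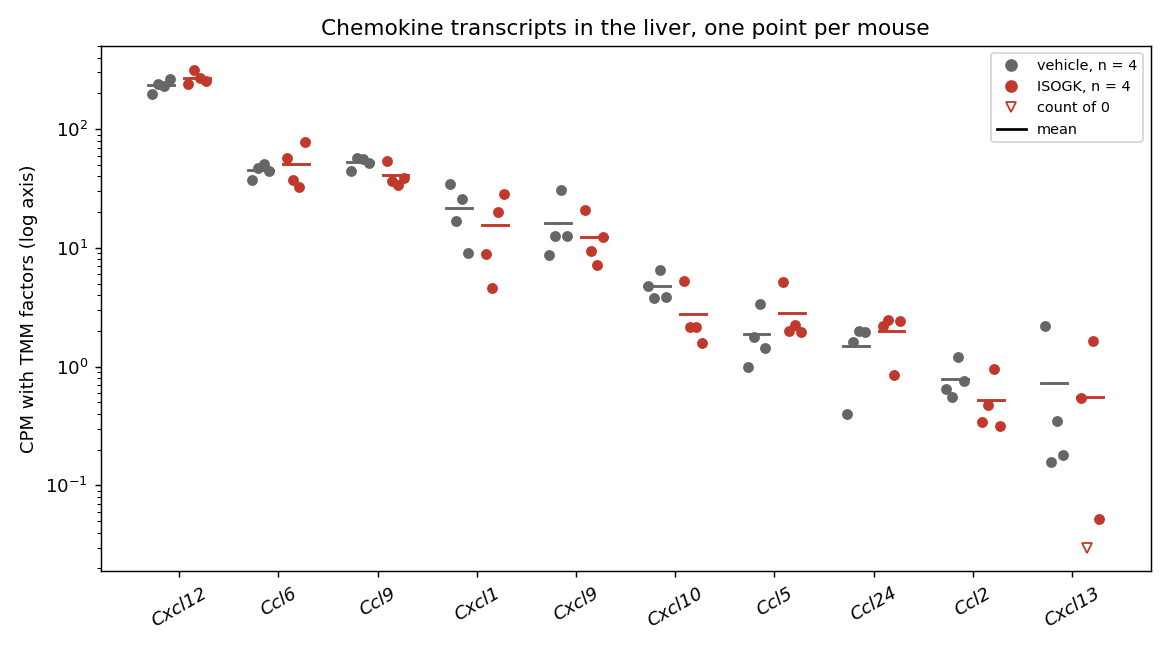
Level of each chemokine transcript in CPM with TMM factors (log axis) in vehicle (grey, n = 4) and ISOGK (red, n = 4) livers, 1 point per mouse in the order of mice 1 to 4, with the group mean as a line and a count of 0 as an open triangle. The ranges of the groups overlap for all 10 genes, and *Cxcl12* lies between 196 and 316 CPM while *Cxcl13* lies between 0 and 2.21.

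*Cxcl12*, the homeostatic chemokine that retains leukocytes and progenitors through Cxcr4, had the smallest biological coefficient of variation of the 9 members tested (0.143). It measured 196, 240, 230 and 267 CPM in the vehicle-treated mice. With ISOGK it measured 242, 316, 272 and 254 CPM. Vehicle mouse 1 was the lowest, ISOGK mice 2 and 3 lay above all vehicle mice, and the groups overlapped. Its log2 fold change was 0.22 (SE 0.12, 95% interval -0.04 to 0.47, adjusted p = 0.291), which bounds any change between 0.971-fold and 1.39-fold. Of its receptors, *Cxcr4* was at 6.12 ± 2.35 CPM in the vehicle group and 4.06 ± 1.15 with ISOGK (SD, n = 4, log2 fold change -0.59, adjusted p = 0.222), and *Ackr3*, which removes the ligand, was at 0.68 ± 0.112 and 0.766 ± 0.155 CPM.

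*Ccl9* and *Ccl6*, adjacent rodent CC chemokines that act on Ccr1 and are made largely by myeloid cells, were the most abundant CC members. *Ccl9* measured 44.4, 56.9, 56.5 and 52.1 CPM in the vehicle group. With ISOGK it measured 53.8, 36.8, 33.7 and 39 CPM. Of the ISOGK-treated mice, 3 lay below every vehicle mouse, while mouse 1 lay within the vehicle range. The log2 fold change was -0.36 (SE 0.14, 95% interval -0.67 to -0.05), with an unadjusted p of 0.0251 and an adjusted p of 0.142. *Ccl9* was the only 1 of 9 members with an unadjusted p under 0.05, where 24.2% of all genes tested had one. Without ISOGK mouse 1 the value was -0.52 and passed (adjusted p = 0.0184).

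*Ccl6* did not follow its neighbour. The vehicle-treated mice had 37.5, 47.2, 50.9 and 44.8 CPM. The ISOGK-treated mice had 57.3, 37.5, 32.5 and 78.2 CPM, on both sides of the vehicle range. Its log2 fold change was 0.19 (SE 0.26, 95% interval -0.40 to 0.77, adjusted p = 0.707), and without ISOGK mouse 4 the sign turned (-0.09). Their shared receptor *Ccr1* had 0.488 ± 0.238 CPM in the vehicle group and 1.01 ± 0.393 with ISOGK (log2 fold change 1.03, SE 0.40, adjusted p = 0.139).

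*Cxcl10* and *Cxcl9* attract activated T cells and NK cells through Cxcr3 and are classical products of interferon-gamma signalling. *Cxcl10* measured 4.82, 3.80, 6.54 and 3.84 CPM in the vehicle group. With ISOGK it measured 5.30, 2.16, 2.15 and 1.57 CPM. The last 3 of these lay below every vehicle mouse, while ISOGK mouse 1 was second only to vehicle mouse 3. The log2 fold change was -0.76 (SE 0.35, 95% interval -1.53 to 0.02), with an unadjusted p of 0.0545 and an adjusted p of 0.216, and a two-sided exact permutation test on log2 CPM gave p = 0.114, where 0.0286 is the smallest p that 4 mice against 4 allow. Without ISOGK mouse 1 the log2 fold change was -1.28 (adjusted p = 0.0115). The call on *Cxcl10* and on *Ccl9* thus turned on that 1 animal, and no other mouse left out gave a call on any member.

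*Cxcl9* measured 8.73, 12.7, 30.8 and 12.5 CPM in the vehicle group. With ISOGK it measured 20.7, 9.50, 7.18 and 12.4 CPM. One mouse in each group, vehicle mouse 3 and ISOGK mouse 1, stood above the other 6. The log2 fold change of -0.38 (SE 0.47, 95% interval -1.47 to 0.71, adjusted p = 0.676) turned to 0.14 without vehicle mouse 3. Their receptor *Cxcr3* was low, at 0.553 ± 0.329 CPM in the vehicle group and 0.588 ± 0.171 with ISOGK (adjusted p = 0.947).

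*Ccl5*, made mainly by T cells, NK cells and activated macrophages and attracting T cells, monocytes and eosinophils, had its highest values in the same animals as *Cxcl9* and *Cxcl10*. It measured 1.00, 1.78, 3.35 and 1.43 CPM in the vehicle group (20, 45, 86 and 32 counts). The ISOGK group had 5.20, 2.01, 2.26 and 1.94 CPM (106, 38, 40 and 37 counts). Vehicle mouse 3 and ISOGK mouse 1 were again the highest of their groups, and the groups overlapped. Its log2 fold change was 0.58 (SE 0.42, 95% interval -0.34 to 1.5, adjusted p = 0.435), and 0.11 without ISOGK mouse 1.

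**Figure D2:**
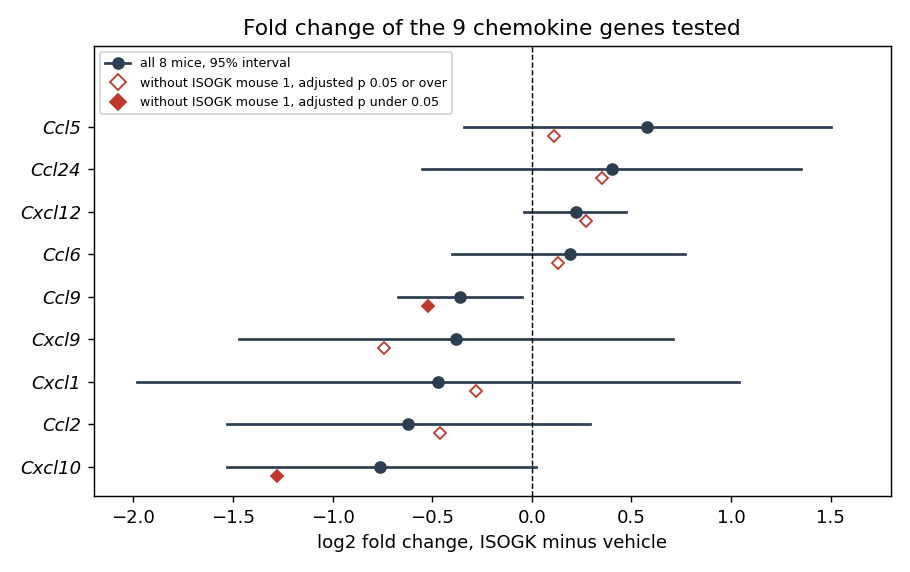
Log2 fold change (ISOGK minus vehicle) of the 9 chemokine genes tested with edgeR. Dark points and bars give the estimate and 95% interval from all 8 mice, and diamonds give the estimate without ISOGK mouse 1, filled where the adjusted p was under 0.05. Of the 9 intervals, that of *Ccl9* (-0.67 to -0.05) leaves out 0, and the filled diamonds are *Ccl9* (-0.52) and *Cxcl10* (-1.28).

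*Cxcl1*, a neutrophil attractant that acts through Cxcr2 and is induced in hepatocytes and macrophages by NF-kB, had the largest biological coefficient of variation of the 9 members tested (0.609). It measured 34.7, 16.8, 25.7 and 9.07 CPM in the vehicle group. With ISOGK it measured 8.83, 4.59, 20.1 and 28.6 CPM. The highest mouse exceeded the lowest 3.82-fold within the vehicle group and 6.23-fold within the ISOGK group, far beyond the counting error of these libraries (for ISOGK mouse 2, 87 counts, the exact Poisson 95% interval is 3.68 to 5.66 CPM). Its fold change on the log2 scale was -0.47 (SE 0.64, 95% interval -1.98 to 1.04, adjusted p = 0.705), an interval of 0.253-fold to 2.06-fold. *Cxcr2* had 1.21 ± 0.23 CPM in the vehicle group and 1.33 ± 0.426 with ISOGK (adjusted p = 0.82). Of the neutrophil markers, *S100a9*, a calcium-binding protein of neutrophil granulocytes, was higher in every ISOGK-treated mouse than in any vehicle mouse (2.76, 2.93, 3.74 and 1.92 CPM against 10.4, 6.23, 7.18 and 4.35 CPM, log2 fold change 1.31, adjusted p = 0.0149, and 0.0522 without vehicle mouse 2). *Csf3r*, the most abundant neutrophil marker, was level (7.02 ± 1.17 against 7.08 ± 2.91 CPM, log2 fold change 0.01, adjusted p = 0.986). Of the 4 neutrophil markers tested, 1 was called higher (4.11% of all genes tested) and 3 had an unadjusted p under 0.05 (24.2%). The 5 neutrophil markers summed to 9.6 to 15 CPM in vehicle and 11.1 to 28.8 CPM in ISOGK livers. The mice highest in *Cxcl1* (vehicle mouse 1 and ISOGK mouse 4) were not those highest in this sum (vehicle mouse 3 and ISOGK mouse 1).

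*Ccl2*, the main attractant of Ccr2+ monocytes, was close to the limit of what these libraries resolve. It had 13, 14, 31 and 17 counts in the vehicle group (0.652, 0.554, 1.21 and 0.759 CPM). The ISOGK group had 7, 9, 17 and 6 counts (0.343, 0.475, 0.961 and 0.314 CPM). Mice 1, 2 and 4 of the ISOGK group lay below all vehicle mice and mouse 3 lay within them, with a log2 fold change of -0.62 (SE 0.42, 95% interval -1.53 to 0.29, adjusted p = 0.399). *Ccr2* had 1.33 ± 0.488 CPM in the vehicle group and 1.46 ± 0.847 with ISOGK (adjusted p = 0.877).

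*Ccl24*, an eosinophil attractant acting on Ccr3 and made by alternatively activated macrophages, had 8, 41, 51 and 44 counts in the vehicle group (0.401, 1.62, 1.99 and 1.97 CPM). With ISOGK it had 45, 47, 15 and 46 counts (2.21, 2.48, 0.848 and 2.41 CPM). One low mouse stood apart in each group, vehicle mouse 1 and ISOGK mouse 3, and the other 6 lay between 1.62 and 2.48 CPM. A log2 fold change of 0.40 resulted (SE 0.43, 95% interval -0.55 to 1.35, adjusted p = 0.622), with 0.10 without vehicle mouse 1 and 0.00 without both vehicle mouse 1 and ISOGK mouse 4. *Ccr3* had 8 counts over all 8 libraries.

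*Cxcl13*, which guides Cxcr5+ B cells into lymphoid follicles, had 44, 4, 9 and 4 counts in the vehicle group (2.21, 0.158, 0.350 and 0.179 CPM). The ISOGK group had 11, 0, 29 and 1 counts (0.54, 0, 1.64 and 0.0524 CPM), and the count of 0 allows a level of up to 0.158 CPM in that library (3 counts). It was the 1 member that did not pass the filter on low counts, and most of its counts came from vehicle mouse 1 and ISOGK mouse 3. B cell markers did not peak in those mice, summing to 1.05 CPM in vehicle mouse 1 and 1.07 in ISOGK mouse 3, within ranges of 1.05 to 1.67 and 0.891 to 3.54 CPM.

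Across the 9 members tested, 4 log2 fold changes were above 0 and 5 below, with a median of -0.36 against 0.00 over all genes tested. Called higher were 0 of 9 (4.11% of all genes) and called lower 0 of 9 (3.44% of all genes). At the study's stricter rule, which adds an absolute log2 fold change over 1, 0 members passed, against 1.63% of all genes. The groups did not overlap for 0 members and for 15.3% of all genes. Unadjusted, edgeR gave 1 member under 0.05 and DESeq2 and limma-voom 2 each (*Ccl9* and *Cxcl10*), with 0 called after adjustment by either.

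The spread between mice of the same group was large for most members. The biological coefficient of variation, which is the spread that counting error does not cover, had a median of 0.331 over the 9 members (0.143 to 0.609) and of 0.146 over all 12307 genes. *Cxcl1* (0.609) was at percentile 99.4 of all genes, *Cxcl9* (0.449) at 98.4, *Ccl24* (0.404) at 97.8, *Ccl5* (0.393) at 97.7, *Cxcl10* (0.331) at 95.5 and *Ccl2* (0.302) at 93.8. *Ccl6* (0.256) was at percentile 88.9, whereas *Ccl9* (0.152) and *Cxcl12* (0.143) were near the middle, at 54.6 and 47.4. Counts were also simulated with the depth of these libraries and the spread estimated for each gene. There edgeR recovered 77.3% of 97 genes changed by 1 on the log2 scale and 97% of 99 genes changed by 2. The changed genes were picked at random, and these shares were not estimated separately for genes with a spread such as that of *Cxcl1*.

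**Figure D3:**
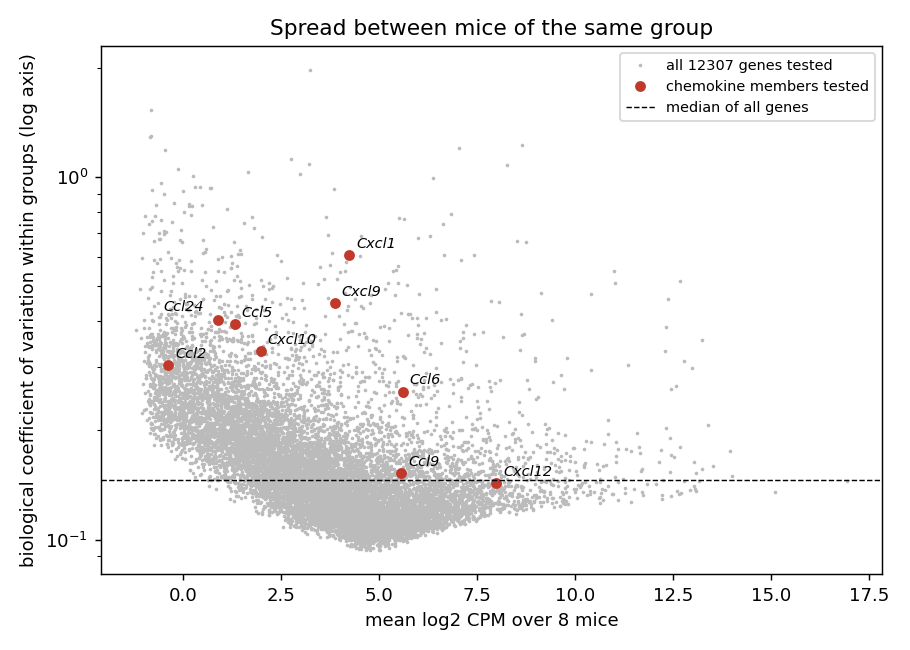
Biological coefficient of variation within groups (log axis) against mean log2 CPM over 8 mice for all 12307 genes tested (grey) and the 9 chemokine genes tested (red), with the median of all genes as a dashed line. *Cxcl1* (0.609) and *Cxcl9* (0.449) are the highest of the 9, while *Ccl9* and *Cxcl12* lie near the median of 0.146.

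The high values fell on particular mice. Vehicle mouse 3 was the highest of its group for 6 of the 10 members, and ISOGK mouse 1 for 4 of 10. Over all genes tested these mice were the highest of their groups for 23.6% and 20.3% of genes. The shares were 50% and 50% for the other chemokines tested and 61.5% and 46.2% for the receptors tested, so the members did not stand out. For the NF-kB responders they were 58.3% and 25%. The list of interferon-gamma responders (22 genes, among them guanylate-binding proteins, immunity-related GTPases and MHC class II genes) showed the same animals more sharply. Vehicle mouse 3 was the highest vehicle mouse for 20 of the 21 tested, and ISOGK mouse 1 the highest ISOGK mouse for 17 of 21. *Gbp2*, a GTPase of cell-autonomous defence, measured 13.6, 11.7, 22.4 and 10.7 CPM in the vehicle group and 22.1, 9.5, 12.7 and 8.7 CPM with ISOGK. It peaked in the mice that were highest in *Cxcl9*, *Cxcl10* and *Ccl5*, and was chosen after seeing its values. The most abundant responders followed this only in part. *Iigp1* peaked in ISOGK mouse 1 (219 CPM) but in vehicle mouse 2 (254 CPM, with 241 in mouse 3). *Cd74* and *H2-Aa* peaked in vehicle mouse 3 (226 and 146 CPM) but in ISOGK mouse 3 (201 and 109 CPM, with 167 and 107 in mouse 1).

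**Figure D4:**
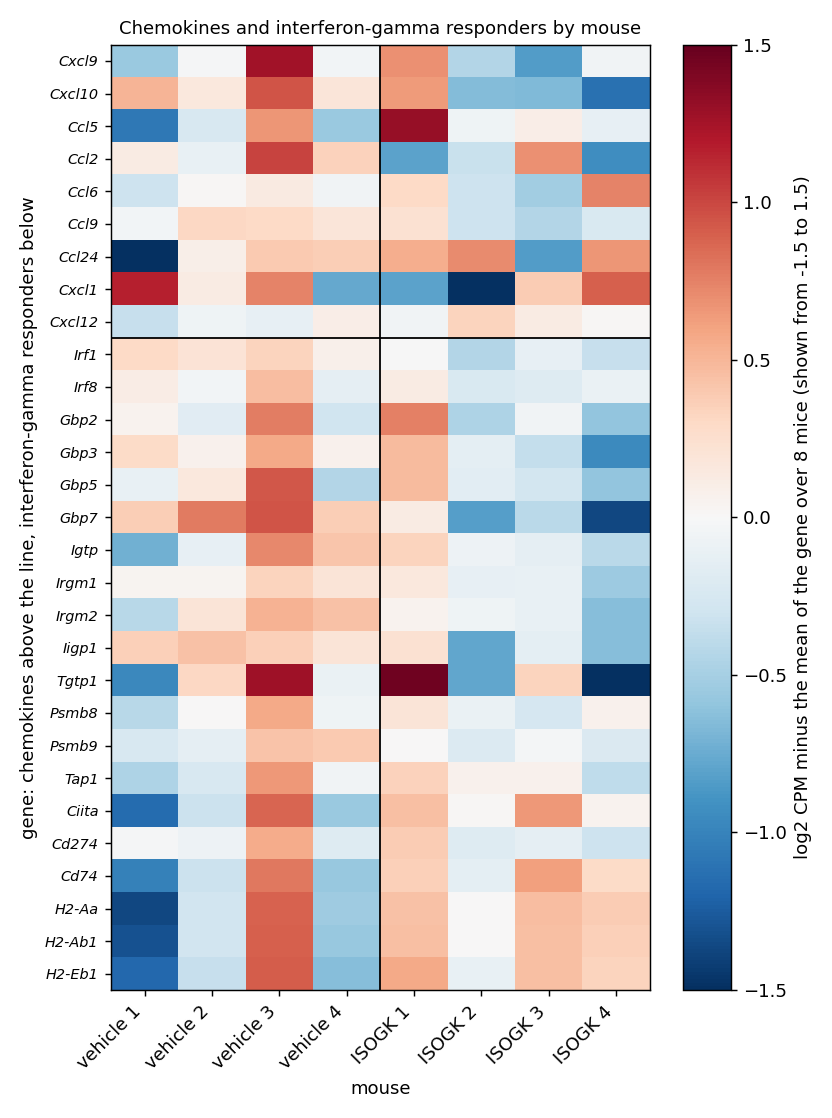
Log2 CPM of each gene minus its mean over 8 mice (colour, from -1.5 in blue to 1.5 in red) for the 9 chemokine genes tested (above the line) and 20 of the 21 interferon-gamma responders tested (below), in 4 vehicle and 4 ISOGK mice. Red columns are seen in vehicle mouse 3, highest of its group for 20 of the 21 responders, and in ISOGK mouse 1, highest of its group for 17.

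Some leukocyte markers were also high in these animals. T and NK cell markers summed to 6.89 CPM in vehicle mouse 3 (others 3.44 to 6.41) and to 8.78 CPM in ISOGK mouse 1 (others 4.61 to 5.96), and dendritic cell markers to 12.3 CPM in vehicle mouse 3 and 9.52 CPM in ISOGK mouse 1, the highest of each group. Neutrophil sums were likewise highest in both, but other lists were not. Macrophage and monocyte markers peaked in vehicle mouse 1 (813 CPM, 743 in mouse 3) and ISOGK mouse 3 (559 CPM, 553 in mouse 1). Kupffer cell markers peaked in vehicle mouse 1 (1080 CPM, 1060 in mouse 3) and ISOGK mouse 1. B cell markers peaked in vehicle mouse 3 and ISOGK mouse 2 (3.54 CPM, 2.4 in mouse 1). In bulk liver, fewer cells of a type and less RNA per cell cannot be told apart. The part of these cells in the chemokine values was not tested. *Ifng* itself had 5 counts over all 8 libraries and could not be tested.

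Between the groups, 2 of the 21 interferon-gamma responders tested were lower with ISOGK and none higher (median log2 fold change of the 21, -0.21), against 3.44% lower and 4.11% higher over all genes tested. An unadjusted p under 0.05 was found for 5 of the 21, near the 24.2% of all genes tested. *Irf1*, a transcription factor that activates *Cxcl10*, measured 35.1, 33, 36.1 and 30.1 CPM in the vehicle group and 28.5, 21.1, 26.3 and 22.5 CPM with ISOGK, without overlap (log2 fold change -0.45, SE 0.11, adjusted p = 0.0348). *Gbp7* measured 5.92, 7.87, 8.8 and 5.9 CPM against 5, 2.59, 3.45 and 1.78 CPM, again without overlap (log2 fold change -1.15, SE 0.27, adjusted p = 0.0281). It belongs to a family of similar genes, and how shared reads were divided is not given. The call on *Irf1* was lost without vehicle mouse 1, 2 or 3 or ISOGK mouse 2 or 4 (adjusted p up to 0.0999), and that on *Gbp7* without vehicle mouse 2 or 3 or ISOGK mouse 2 (adjusted p up to 0.0887). Without both vehicle mouse 1 and ISOGK mouse 4 the adjusted p was 0.149 for *Irf1* and 0.0506 for *Gbp7*. Of 12 NF-kB responders, 11 were below 0 (median -0.26), 3 had an unadjusted p under 0.05 (24.2% of all genes tested did) and 0 were called. *Vcam1*, an endothelial adhesion molecule, was the most abundant, at 94.5 ± 16.4 CPM in vehicle and 61.9 ± 20.1 CPM in ISOGK livers (log2 fold change -0.61, adjusted p = 0.111), and passed with DESeq2 (adjusted p = 0.0326) and, as *Ccl9* and *Cxcl10* did, without ISOGK mouse 1 (-0.85, adjusted p = 0.00772).

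Among 23 chemokine receptor genes, 13 were tested, and 1 was called higher and 0 lower, against 4.11% and 3.44% of all genes tested. The median log2 fold change was 0.13, against 0.00 over all genes tested. *Ackr2*, a decoy receptor that takes up inflammatory CC chemokines including Ccl2 and Ccl5 without signalling, measured 3.01, 3.05, 2.41 and 2.19 CPM in the vehicle group. With ISOGK it measured 3.48, 7.86, 4.92 and 4.03 CPM, all above the vehicle range. The log2 fold change was 0.93 (SE 0.25, 95% interval 0.38 to 1.47, adjusted p = 0.0444), and it was lost with limma-voom (adjusted p = 0.068), with library size alone (adjusted p = 0.0725) and without any 1 vehicle mouse or ISOGK mouse 2 or 3 (adjusted p up to 0.113), and without both vehicle mouse 1 and ISOGK mouse 4 (adjusted p = 0.0772). Receptors of the members were named after their values were seen, apart from *Cxcr4*. *Cx3cr1*, the fractalkine receptor, also chosen after seeing its values, had 0.602, 1.82, 1.44 and 0.893 CPM in vehicle and 2.94, 2.9, 3.17 and 0.995 CPM in ISOGK livers (log2 fold change 1.05, adjusted p = 0.13; 1.31 and 0.0347 without ISOGK mouse 4).

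The other chemokines did not pass the test either. Of 28 listed, 23 had a row, 10 were tested and 0 were called (3 above and 7 below 0, median -0.41), and 0 had an unadjusted p under 0.05. *Cxcl16*, the transmembrane ligand of Cxcr6, was the most abundant, at 20.3 ± 3.56 CPM in vehicle and 18.9 ± 2.31 CPM in ISOGK livers (adjusted p = 0.703). *Ccl21a*, a lymphatic chemokine with near-identical copies in the mouse genome whose reads may have been split, was at 2.10 ± 1.14 and 1.54 ± 0.705 CPM. Of 13 cytokines that induce chemokines, 5 were tested and 0 called, among them *Il1b* at 3.11 ± 0.664 CPM in vehicle and 3.42 ± 0.473 CPM in ISOGK livers and *Il1a* at 6.17 ± 1.83 and 4.89 ± 1.34 CPM. Of 7 proteases that cut chemokines, 0 were called and 4 had an unadjusted p under 0.05, against 24.2% of all genes tested, including *Dpp4*, which trims Cxcl9, Cxcl10 and Cxcl12 at the N-terminus (97.5 ± 12 and 77.2 ± 12.2 CPM, log2 fold change -0.34, adjusted p = 0.128).

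Some macrophage markers, in contrast, were lower with ISOGK. The 8 macrophage and monocyte markers summed to 626 to 813 CPM in vehicle and 466 to 559 CPM in ISOGK livers, without overlap, and 2 of the 8 were called lower, *Cd68* (50.6 ± 4.79 against 34 ± 4.23 CPM, log2 fold change -0.57, adjusted p = 0.009) and *Gpnmb*, a marker of lipid-laden macrophages (162 ± 14.8 against 71 ± 5.45 CPM, log2 fold change -1.19, adjusted p = 6.48e-05). Over all genes tested 3.44% were called lower. The sum holds *Gpnmb*, and its lack of overlap rests on that gene. *Gpnmb* made up 182 of the 626 CPM in vehicle mouse 4. It made up 77.9 of the 553 CPM in ISOGK mouse 1 and 72.4 of the 559 CPM in ISOGK mouse 3. Without *Gpnmb* the sum in vehicle mouse 4 lies below those of these ISOGK mice, and the groups overlap. For every other marker of the 8 but *Cd68* the groups overlapped, and *Itgam* was above 0 (log2 fold change 0.18). Kupffer cell markers summed to 906 to 1080 and 719 to 936 CPM, which overlapped. ISOGK mouse 1, in which *Ccl9* and *Cxcl10* were at vehicle levels, had 553 CPM of macrophage markers and the highest Kupffer cell sum of its group, 936 CPM. ISOGK mouse 3, the lowest in *Ccl9*, had 559 CPM of macrophage markers. Their part in the values of *Ccl9* and *Cxcl10* was not tested.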

How the data were processed

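Liver RNA of 8 *Apoe*-/- mice was sequenced, 4 per group. Per the study's methods, the authors aligned single-end reads with HISAT2, computed raw counts with StringTie and normalized them with DESeq2, and the deposited table holds the raw counts per gene symbol. The submitters' processing notes name mm10. The annotation release and use of strand are not given in the sources used here. Columns named for DMSO were taken as vehicle.

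Counts were filtered with filterByExpr (minimum count 10, total 15), scaled by TMM factors and compared in edgeR 4.0.16 by its quasi-likelihood F test with robust estimation (R 4.3.3). Adjusted p-values are Benjamini-Hochberg values over 12307 genes. RPKM used the union of exons in GENCODE M21, and log2 CPM a prior count of 2. Exact intervals and floors cover counting error only. That libraries are separate mice rests on the labels, and p-values measure the spread between them. The members and lists were chosen with earlier results of these data known. Named were all members, every listed gene under an adjusted p of 0.05 and the most abundant of each list, a few later ones being marked and a few left out here. Alternatives were DESeq2 1.42.0, limma-voom (limma 3.58.1), other scaling and filters, no robust option, a replicate block and each mouse left out. The test was tested on simulated data, with 11 false calls among 12201 genes.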

Additional observations from a re-analysis of the deposited data

Results flagged for a closer look

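Within groups of 4 mice, a value was marked where the gap between the highest or lowest mouse and its neighbour took up most of the range of the group. Of 110 groups examined, 7 had such a gap, where about 5.5 are expected by chance. Among the chemokines these were *Ccl5* at 5.20 CPM in ISOGK mouse 1, *Cxcl10* at 5.30 CPM in ISOGK mouse 1, *Ccl24* at 0.848 CPM in ISOGK mouse 3 and *Cxcl13* at 2.21 CPM in vehicle mouse 1. *Cd4* stood high at 3.38 CPM in ISOGK mouse 2. Vehicle mouse 4 stood high in *Myh4*, a myosin of fast skeletal muscle, at 20.1 CPM, and in the number of genes with a count, 15369.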

How the results depend on the processing

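Over 17 alternatives, 0 members were called higher in any, and members were called lower in 1, without ISOGK mouse 1 (2 members); with 1 mouse left out the count of lower members ran from 0 to 2. The sign turned for *Ccl6* without ISOGK mouse 4 (-0.09) and without both vehicle mouse 1 and ISOGK mouse 4 (-0.17), an alternative added after seeing the data, and for *Cxcl9* without vehicle mouse 3 (0.14). One mouse left out moved the log2 fold change of *Ccl6* over -0.09 to 0.35, of *Cxcl9* over -0.74 to 0.14, of *Ccl24* over 0.10 to 0.64, of *Ccl2* over -1.08 to -0.33 and of *Cxcl1* over -0.95 to -0.15. Receptors with low counts turned too: with 1 mouse left out, log2 fold changes ran over -0.31 to 0.36 for *Ccr2*, -0.05 to 0.26 for *Cxcr2* and -0.27 to 0.33 for *Cxcr3* (-0.06 with library size alone), and *Cxcl16* was at 0.01 without those 2 mice. Library size alone moved the median of all genes to -0.13, relative to which *Ccl6* was at 0.16. All genes higher and lower numbered 765 and 670 with DESeq2, 262 and 804 with library size alone, and 254 and 193 without vehicle mouse 1 and ISOGK mouse 4; with 1 mouse left out they ran from 219 to 712 and from 160 to 523. Pathway list genes called higher were 0 with limma-voom, with library size alone and without those 2 mice; called lower were 4 with DESeq2 and 0 without those 2 mice; both ran from 0 to 4 with 1 mouse left out. The cause of these shifts was not tested.

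The replicate numbers did not pair the mice, as correlations of same-numbered mice were -0.0144 to 0.0849. With the replicate block, 0 members were called, *Cxcl10* was at -0.85 and the call on *Sox9* was lost (0.52, adjusted p = 0.0916). Members with few counts (*Ccl2*, *Ccl24*, *Cxcl13*) carry more counting error. Of these, *Ccl2* and *Ccl24* also varied between mice beyond it (biological coefficients of variation 0.302 and 0.404).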

Other observations

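Cholangiocyte markers were higher with ISOGK for *Sox9*, a transcription factor of bile duct cells (4.11, 4.55, 3.5 and 4.15 CPM against 5.89, 5.33, 6.39 and 5.71 CPM, log2 fold change 0.51, edgeR adjusted p = 0.0494), a call lost without any 1 of the 8 mice (adjusted p 0.0745 to 0.14) and with library size alone (0.122). Of the 5 markers, 4 had an unadjusted p under 0.05, against 24.2% of all genes tested. Their sums overlapped, at 27.5 to 34.8 CPM in vehicle and 28.2 to 69.1 CPM in ISOGK livers, with ISOGK mouse 4 the lowest of its group. *Spp1*, osteopontin, was at 24 ± 3.43 CPM in vehicle and 36.6 ± 14.1 CPM in ISOGK livers (n = 4 each, adjusted p = 0.188 in edgeR, 0.0248 without ISOGK mouse 4). *Cxcl14*, a chemokine of epithelia and stroma, was at 0.452 to 1.25 CPM in vehicle livers and reached 6.29 CPM in ISOGK mouse 4 (log2 fold change 1.41, SE 0.65, adjusted p = 0.223). *Tnfaip3*, an NF-kB feedback inhibitor chosen after seeing its values, was highest in vehicle mice 1 and 3 (43.1 and 33.9 CPM), the vehicle mice with the most *Cxcl1*, and lay between 8.44 and 12.8 CPM in the other 6. Among these were ISOGK mice 4 and 3, with 28.6 and 20.1 CPM of *Cxcl1* and 9.33 and 11.1 CPM of *Tnfaip3*. Any link between these transcripts was not tested.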
